A study of Mus musculus with 6 samples.

Results

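The transcript levels of 8 genes known to act on the choice of Pkm splice isoform were examined in chondrocytes after Pkm2 knockdown. These regulators were Ptbp1, Ptbp2, Ptbp3, Hnrnpa1, Hnrnpa2b1, Srsf3, Rbm4 and Nek2. Ptbp3, a polypyrimidine tract-binding (PTB) protein, was the one whose knockdown and control libraries did not overlap, with a mean level 1.89 times that of controls, and 24.3% of all genes tested likewise did not overlap. The genes were taken by name from the 55416 genes measured, although earlier results of these data were known when they were chosen. All 8 were among the 15269 genes that passed the filter on low counts. RNA-seq had been performed on primary mouse chondrocytes labelled as coming from neonatal knee joints, grown in DMEM/F12 with FBS. Controls carried a scrambled siRNA (siNC, n = 3) and are labelled wild type, and the other cultures carried siRNA against Pkm2 (siPkm2, n = 3). The genotype entry of the siPkm2 cultures reads PKM2, PKM3 and PKM4 knockdown in turn, whereas all 3 titles read siPKM2, and the titles were followed. The study's methods describe cells from adult mice, so the age of the donors differs between the sources. No source says whether the cultures of a group came from separate animals, so p-values measure the spread between these libraries, which may be technical.

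Pkm makes pyruvate kinase, the enzyme of the last step of glycolysis, and its transcript carries either of a pair of mutually exclusive exons, one giving PKM1 and the other PKM2. PTB and hnRNP A1 and A2 bind beside the PKM1 exon and repress its inclusion, SRSF3 promotes inclusion of the PKM2 exon, RBM4 opposes PTB, and the kinase NEK2 binds hnRNP A1 and A2. MYC raises the transcription of PTB, hnRNP A1 and hnRNP A2 in proliferating cells, so PKM2 is the usual form there.

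The exons that these proteins choose between are shown because the counts cannot tell them apart. In GENCODE M21 on GRCm38, the PKM1 exon of transcript Pkm-202 lies at chr9:59675029-59675195 and the PKM2 exon of transcript Pkm-201 at chr9:59675568-59675734, both on the plus strand within the Pkm gene. Each is 167 bases long, and 103 bases (61.7%) are identical between them. Capitals mark the 64 positions that differ.
PKM1 exon: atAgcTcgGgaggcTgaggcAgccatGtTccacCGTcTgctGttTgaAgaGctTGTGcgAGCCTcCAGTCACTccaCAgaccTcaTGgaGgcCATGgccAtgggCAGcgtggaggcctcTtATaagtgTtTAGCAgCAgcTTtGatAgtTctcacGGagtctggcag
PKM2 exon: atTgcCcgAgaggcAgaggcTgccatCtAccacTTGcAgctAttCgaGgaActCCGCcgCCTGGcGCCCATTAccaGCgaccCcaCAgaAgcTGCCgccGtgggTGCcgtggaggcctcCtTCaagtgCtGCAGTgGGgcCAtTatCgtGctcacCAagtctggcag
The deposited values hold 1 count per gene, so a change in the regulators can be read here, but a change in the choice between these exons cannot.

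The siRNA sequences are shown for their seeds, the bases through which an siRNA can also pair with other transcripts. The study's methods state that the third of its Pkm2 siRNAs was selected, but no source ties a siRNA to the sequenced cultures. Antisense strands are written 5′ to 3′ with bases 2 to 8 in capitals.
siPkm2 #1: aUGGUACAaaugaugccagtt
siPkm2 #2: aCAUUCUUgauggucucugtt
siPkm2 #3: uGUUUCUCcagacagcaugtt
The 7-base site for the third siRNA, GAGAAAC, was in the longest annotated 3′ UTR of 0 of the 8 regulators and of 16.4% of the 13202 tested genes with a UTR. The Ptbp3 UTR of 5015 bases held 1 site for the first siRNA (TGTACCA, at base 972 from the UTR start) and 1 for the second (AAGAATG, at base 1807), which occurred in 10.9% and 15.9% of genes. Hnrnpa2b1 held 1 site for the first siRNA, at base 92 of its 523-base UTR. The other 6 regulators held none of the 3 sites. Only sites pairing with the antisense strands of the siRNAs were searched for, and seeds of their sense strands were not.

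Library depth was 22317065 to 25691096 estimated counts. Pkm, the targeted gene, measured 2335, 2746 and 1674 CPM (counts scaled to library size with TMM factors) in siNC replicates 1 to 3 and 336, 541 and 309 CPM in siPkm2. All 3 siPkm2 libraries were lower, by 2.51 on the log2 scale (adjusted p = 0.0738, edgeR quasi-likelihood test; 0.00932 with the replicate number as a block). Replicate 2 of both groups stood apart. Its summed level of 8 chondrocyte markers was 10031 CPM in siNC and 13988 CPM in siPkm2, against highest sums of 46449 and 40168 CPM in the groups, and Col2a1, the type II collagen of cartilage, was 8526 and 11449 CPM there against 27892 to 36071 CPM elsewhere. All 8 chondrocyte markers were detected, whereas 6 of 11 neuronal and glial, 6 of 9 muscle, 3 of 7 macrophage and 4 of 6 endothelial markers were too low to test. The macrophage markers summed to 75.9 and 62.0 CPM in replicate 2 of siNC and siPkm2, which were the highest sums of their groups. Cd68 (55.5 and 33.4 CPM) and Cd14 (14.9 and 23.5 CPM) led those sums. Ptprc, Adgre1 and Fcgr1 lay between 0 and 0.078 CPM in these libraries. Lyz2 was lower there (3.32 and 3.07 CPM) than in replicate 3 (3.63 and 3.61 CPM). Csf1r was highest in replicate 2 of siNC (2.14 CPM) but not of siPkm2 (1.83 CPM). Libraries with the same number deviated together (r = 0.66, 0.76 and 0.65 across genes), so values within numbered pairs are given beside the group comparison.

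Without the block, edgeR called 0 of 8 regulators and 0 of 15269 genes at an adjusted p under 0.05 (background 0%), the lowest adjusted p over all genes being 0.0519. At an unadjusted p under 0.05 it marked 1 regulator, Ptbp3, against 17.6% of all genes. With the block it called 1 regulator, again Ptbp3, against 23.1% of all genes, or 12.3% counting higher genes alone. DESeq2 without the block called Ptbp3 alone among the 8, against 5.38% of genes with an adjusted p. The 2 groups did not overlap in CPM for 1 of 8 regulators and for 24.3% of genes, and all 3 pairs moved the same way for 6 of 8 regulators and for 61.1% of genes. Counts this close to the background are no result about the regulators as a group. In bulk RNA, fewer cells of a type and less RNA per cell cannot be told apart.

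**Figure D1:**
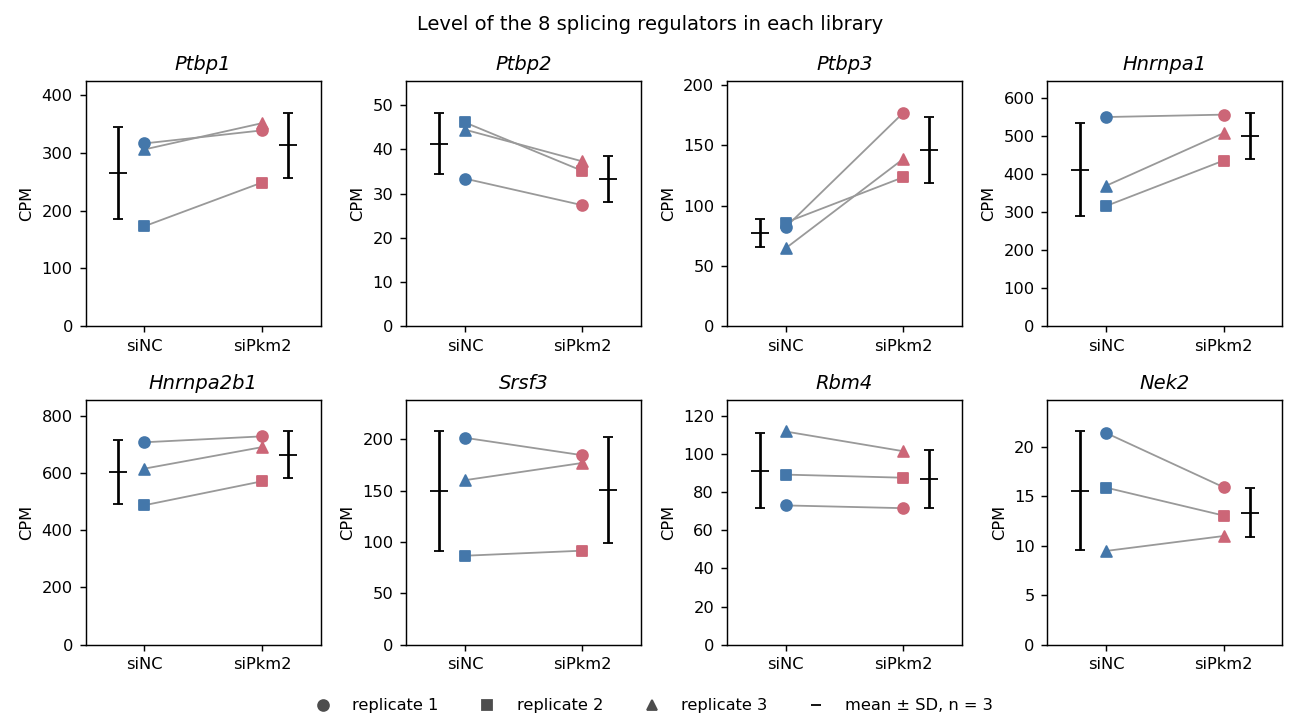
TMM-scaled CPM (vertical axes, linear from 0) of each regulator in siNC and siPkm2 libraries, with lines joining libraries of the same number and bars giving the mean ± SD (n = 3). The siPkm2 libraries of Ptbp3 sit between 123 and 177 CPM, all above the siNC libraries at 64.5 to 85.9 CPM, and the groups of the other 7 genes overlap.

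Among the PTB repressors, Ptbp3 (GRCm38 chr4:59471868-59549364, minus strand) measured 81.9, 85.9 and 64.5 CPM in siNC and 177, 123 and 139 CPM in siPkm2. Every siPkm2 library lay above every siNC library, with the widest steps in replicates 1 and 3. Control libraries averaged 77.4 ± 11.4 CPM and knockdown libraries 146 ± 27.5 CPM (SD, n = 3 each), a ratio of 1.89. The log2 fold change was 0.92 (SE 0.19, adjusted p = 0.124, edgeR without the block) and 0.91 with the block (SE 0.14, adjusted p = 0.0167), and DESeq2 without the block gave an adjusted p of 0.0103. The pairs differed by 1.11, 0.52 and 1.10 on the log2 scale. With the block and only the libraries of numbers 1 and 3, a setting added after seeing the data, the edgeR adjusted p was 0.000271. In that setting edgeR called 5941 genes in all. The adjusted p of Ptbp3 was 0.0898 without replicate 1 and 0.110 without replicate 3, settings in which edgeR called 0 genes in all. The PTB paralog is known from blood cells and is also called ROD1. No 75-base stretch of its longest transcript was shared with another gene, and its estimated counts were whole numbers in all 6 libraries. The pseudogenes Gm12529 and 1700018M17Rik overlap it on the other strand. The counting is not stated to use strand, so any reads of theirs cannot be told apart from those of Ptbp3.

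Ptbp1 (chr10:79854427-79864771, plus strand), the widely expressed PTB and the form studied most in Pkm splicing, measured 316, 173 and 306 CPM in siNC and 339, 248 and 351 CPM in siPkm2. The groups overlapped, and replicate 2 was the lowest library of each. Its log2 fold change was 0.24 (SE 0.28, adjusted p = 0.717, edgeR) and 0.27 with the block (adjusted p = 0.129). Its pairs differed by 0.10, 0.52 and 0.20 on the log2 scale, all in the same direction. Genes on the other strand overlap Ptbp1, among them Plppr3 and the antisense gene Gm17134, and the counting is not stated to use strand, so their reads cannot be told apart.

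Ptbp2 (chr3:119718742-119784466, minus strand), the PTB paralog known for its role in neurons, measured 33.4, 46.1 and 44.5 CPM in siNC and 27.4, 35.1 and 37.3 CPM in siPkm2. Each siPkm2 library was below its numbered partner, by -0.29, -0.39 and -0.25 on the log2 scale, although the groups overlapped because siNC replicate 1 was low. The log2 fold change was -0.31 without the block (SE 0.19, adjusted p = 0.451) and -0.31 with it (SE 0.08, adjusted p = 0.0521, edgeR). With the block and without replicate 2, the adjusted p of Ptbp2 was 0.0465, against 0.206 without replicate 1 and 0.227 without replicate 3. These settings were added after seeing the data, and edgeR called 5941 genes in the first and 0 in the others. DESeq2 with the block gave an adjusted p of 0.105. Of 11 neuronal and glial markers 5 were high enough to test, and their list summed to 29.0 to 51.5 CPM in siNC and 21.6 to 26.6 CPM in siPkm2. Map2, the most abundant, fell with the block from 16.1 ± 3.32 CPM (SD, n = 3) in siNC to 7.35 ± 2.74 CPM in siPkm2 (edgeR adjusted p = 0.0405). Others went both ways without a call, with Syn1 (0.72 on the log2 scale with the block, adjusted p = 0.0906) and Tubb3 (0.23) above 0 and Mbp (-0.44) below. Rbfox3 and Nefl, defining markers of neurons, were at 0 in all libraries but siNC replicate 3, where they measured 0.482 and 0.701 CPM. The part of these markers in the level of Ptbp2 was not tested.

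The 3 PTB genes were compared with each other on the deposited TPM scale, which divides by transcript length. In siNC, Ptbp3 measured 18.6, 22.3 and 16.9 TPM and Ptbp2 measured 15.5, 21 and 22.3 TPM, and these ranges overlapped. In siPkm2, Ptbp3 measured 44.0, 30.9 and 33.5 TPM and lay above Ptbp2, at 12.6, 16.7 and 18.8 TPM, in every library. The ratio of Ptbp3 to Ptbp2 was 1.20, 1.06 and 0.759 in siNC and 3.51, 1.85 and 1.78 in siPkm2, higher in 3 of 3 pairs. The ratio was chosen after these levels were seen and is given as a description. Ptbp1 remained the most abundant of the 3, at 158 ± 38.1 TPM (SD, n = 3) in siNC and 186 ± 31.5 TPM in siPkm2. As a share of the summed TPM of the PTB genes, Ptbp3 made up 8.85%, 14.1% and 7.57% in siNC and 17.3%, 15.7% and 12.8% in siPkm2. The share of Ptbp3 was higher in siPkm2 in 3 of 3 pairs, and that of Ptbp2, at 7.37%, 13.3% and 9.99% in siNC and 4.94%, 8.47% and 7.18% in siPkm2, was lower in 3 of 3. Taken as unpaired groups, for which the smallest two-sided exact p is 0.1, the shares of Ptbp3 overlapped (10.2 ± 3.47% against 15.3 ± 2.30%, SD, n = 3, exact permutation p = 0.2), as did those of Ptbp2 (10.2 ± 2.97% against 6.86 ± 1.78%, exact permutation p = 0.2) and Ptbp1 (79.6 ± 6.11% against 77.9 ± 2.09%, exact permutation p = 0.7).

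**Figure D2:**
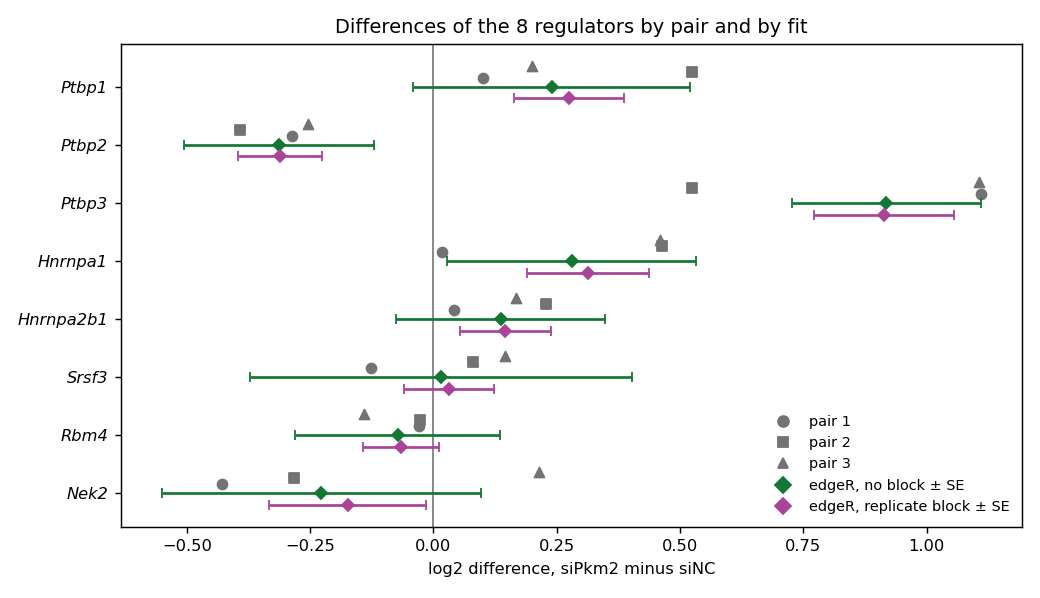
Log2 difference of siPkm2 minus siNC (horizontal axis) for each regulator, with grey marks for the numbered pairs and diamonds for the edgeR fold changes without and with the replicate block (bars, SE). The 3 pairs of Ptbp3 lie between 0.52 and 1.11, and those of Ptbp2 between -0.39 and -0.25.

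Of the hnRNP repressors, Hnrnpa1 (chr15:103240432-103246692, plus strand) measured 551, 317 and 370 CPM in siNC and 557, 436 and 509 CPM in siPkm2. The highest siNC library exceeded 2 of the 3 siPkm2 libraries, and the first pair was nearly level. Its log2 fold change was 0.28 (SE 0.25, adjusted p = 0.62, edgeR) and 0.31 with the block (adjusted p = 0.119), over pairs of 0.02, 0.46 and 0.46. Of its 75-base stretches, 44.4% also occur in 13 other genes, chiefly processed pseudogenes. The pseudogene sharing most of them, Gm10052, had 0 counts in all 6 libraries.

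Hnrnpa2b1 (chr6:51460932-51469894, minus strand), which encodes hnRNP A2 and B1, measured 708, 487 and 615 CPM in siNC and 729, 571 and 691 CPM in siPkm2. The groups overlapped, and the order of the 3 replicates was the same in both. Its log2 fold change was 0.14 (SE 0.21, adjusted p = 0.795, edgeR) and 0.15 with the block (adjusted p = 0.286). The pairs of Hnrnpa2b1 differed by 0.04, 0.23 and 0.17 on the log2 scale. Its counts were whole in all libraries, and it shared no 75-base stretch with another gene.

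Srsf3 (chr17:29032628-29043373, plus strand), the SR protein that favours the PKM2 exon, measured 201.7, 86.6 and 160 CPM in siNC and 185, 91.5 and 177 CPM in siPkm2. Its libraries followed their number and not their group, replicate 2 being lowest in both. The log2 fold change was 0.02 (SE 0.39, adjusted p = 0.99, edgeR) and 0.03 with the block (SE 0.09, adjusted p = 0.817), and the pairs went both ways, at -0.13, 0.08 and 0.14. A value this close to 0 gives no direction. It was -0.05 with upper-quartile factors, which also lowered Ptbp1 from 0.24 to 0.17, and -0.06 on log2(TPM + 1). Ptbp1, Hnrnpa1, Hnrnpa2b1 and Srsf3 were all lowest in replicate 2 of both groups, the libraries with the low chondrocyte marker sums given above. Without siNC replicate 2, the log2 fold change was 0.01 for Ptbp1, 0.12 for Hnrnpa1, 0.0058 for Hnrnpa2b1 and -0.26 for Srsf3. The part of those cells or libraries in the levels was not tested.

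Rbm4 (chr19:4784293-4793901, minus strand), the antagonist of PTB, measured 73.2, 89.4 and 112 CPM in siNC and 71.7, 87.8 and 102 CPM in siPkm2. Within pairs the CPM were close, with differences of -0.03, -0.03 and -0.14 on the log2 scale, and the fold change was -0.07 (SE 0.21, adjusted p = 0.897, edgeR; -0.07 and 0.562 with the block). On the TPM scale the direction turned. Rbm4 measured 33.7, 25.1 and 42.1 TPM in siNC and 35.5, 33.2 and 48.2 TPM in siPkm2, higher in all 3 pairs, and limma on log2(TPM + 1) gave a log2 difference of 0.22 (adjusted p = 0.697). The ratio of count to TPM, which stands for the transcript length that the estimate used, varied 1.99-fold over the 6 libraries for Rbm4 and was highest in siNC replicate 2. The median gene varied 1.10-fold, and 1.90% of the 12009 genes with at least 10 counts and 1 TPM in every library varied more than Rbm4. Of its 75-base stretches, 66.1% also occur in Gm21992, an overlapping gene on the same strand with 54.2 to 144 counts per library, and 13.9% in Rbm4b, its paralog, with 486 to 1008 counts. The reads of Rbm4 could therefore be split between genes and transcripts, and its level is uncertain.

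**Figure D3:**
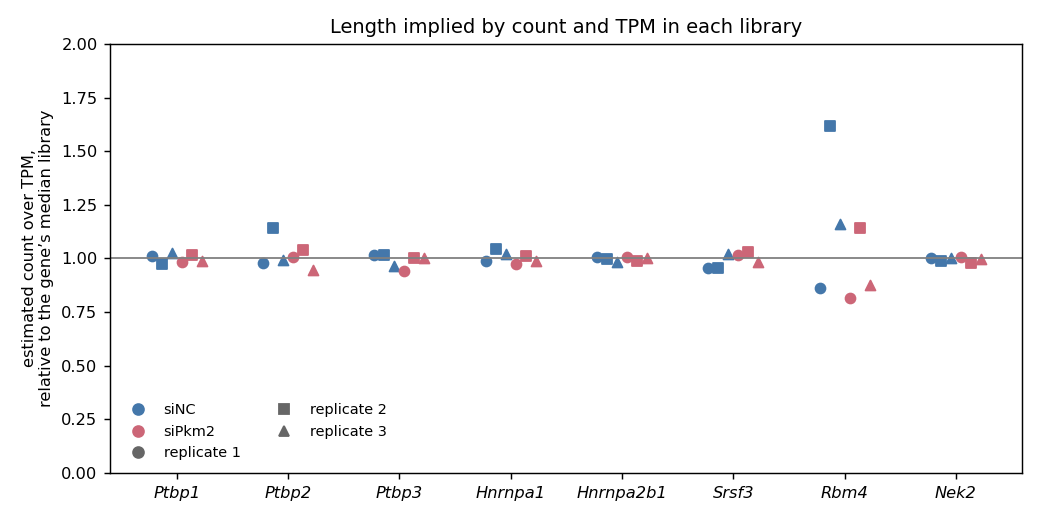
Estimated count divided by TPM in each library, centred on the median gene of that library and given relative to the median library of the same gene (vertical axis, no unit), for the 8 regulators. The points of Rbm4 spread from 0.815 to 1.62, and those of Hnrnpa2b1 and Nek2 lie within a few hundredths of 1.

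Nek2 (chr1:191821444-191833050, plus strand), a centrosomal kinase of dividing cells that the antisense gene Gm38037 overlaps, measured 21.4, 15.9 and 9.46 CPM in siNC and 15.9, 13.0 and 10.97 CPM in siPkm2. The siPkm2 libraries fell inside the range of siNC, and the third pair went against the other two. Its log2 fold change was -0.23 (SE 0.32, adjusted p = 0.773, edgeR) and -0.17 with the block (adjusted p = 0.452), over pairs of -0.43, -0.28 and 0.21. The 19 other mitosis markers were all lower in siPkm2 without the block, with a median log2 fold change of -0.67 (all genes tested, -0.02), though 0 of 19 were called. With the block all 19 were still below 0 and 16 of them were called, against 1650 of all 15269 genes tested called as lower. Among the 16 were the mitotic motor Kif11 (-1.25, edgeR adjusted p = 0.00942), the kinase Aurka (-1.08, adjusted p = 0.0122) and the proliferation marker Mki67 (-0.95, adjusted p = 0.0141). Their summed level was 740 to 1300 CPM in siNC and 484 to 744 CPM in siPkm2. Nek2 was below the siNC partner in 2 of 3 pairs and was not among the genes called, and whether it differs from the list was not tested. Of the 7 tested NEK kinases other than Nek2, 2 were called as higher and 3 as lower with the block. Among all genes tested, 23.1% were called with the block, and 12.3% were called as higher. Nek6 (0.68, adjusted p = 0.0142) and Nek7 (0.43, adjusted p = 0.0228), which act in mitosis, rose, and Nek1 (-0.83, adjusted p = 0.0130), a kinase of primary cilia and DNA repair, fell with Nek4 and Nek8.

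By level per length, Hnrnpa2b1 led in both groups, at 669 ± 80.0 TPM (SD, n = 3) in siNC and 715 ± 60.2 TPM in siPkm2. Hnrnpa1 followed at 384 ± 96.1 and 468 ± 50.4 TPM, then Ptbp1 and then Srsf3 at 95.7 ± 32 and 92.3 ± 30.7 TPM. The ranges of Hnrnpa2b1 and Hnrnpa1 did not meet, nor did those of Hnrnpa1 and Ptbp1, whereas Ptbp1 and Srsf3 overlapped in siNC, where Ptbp1 in replicate 2 (115 TPM) was below Srsf3 in replicate 1 (124 TPM). In siPkm2 the ranges of Ptbp1 and Srsf3 did not meet. Rbm4 averaged 33.6 ± 8.49 and 38.9 ± 8.08 TPM, below every library of Srsf3. In siNC, Ptbp2 (19.6 ± 3.61 TPM) and Ptbp3 (19.3 ± 2.75 TPM) came next and could not be ordered beyond their spread. In siPkm2, Ptbp3 averaged 36.1 ± 6.95 TPM, a level whose range overlapped that of Rbm4, and Ptbp2 averaged 16.02 ± 3.17 TPM. Nek2 was the lowest, at 8.06 ± 2.74 and 6.75 ± 1.11 TPM.

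**Figure D4:**
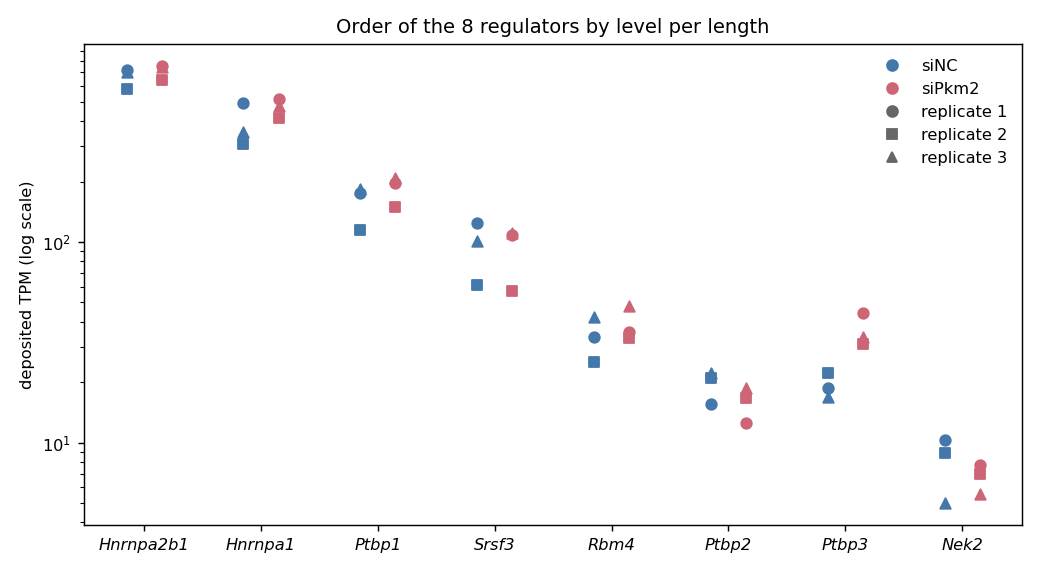
Deposited TPM (vertical axis, log scale) of the regulators in each library, ordered by their mean in siNC and coloured by group, with 1 mark per library. Hnrnpa2b1 is highest at 577 to 755 TPM and Nek2 lowest at 5 to 10.3 TPM, and Ptbp3 moves from the level of Ptbp2 in siNC to that of Rbm4 in siPkm2.

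Other genes of these families were read beside all genes tested, of which 23.1% were called with the block. Counts near that share are no result about a list. Without the block, edgeR called 0 genes of each list below and 0 of all 15269 genes. Of 22 other hnRNP genes, 16 had a positive and 6 a negative fold change (median 0.07 on the log2 scale, against -0.02 for all genes), and with the block Hnrnpab (0.66, adjusted p = 0.0133) and Hnrnpf (0.40, adjusted p = 0.0386) rose and Hnrnpdl fell (-0.44, adjusted p = 0.0354). The most abundant, Hnrnpk, averaged 536 ± 65.1 CPM in controls and 541 ± 97.5 CPM after knockdown (SD, n = 3 each). Of 12 other SR genes, 9 were positive (median 0.08), and only Srsf9, a splicing factor of the same family as Srsf3, was called with the block (0.42, adjusted p = 0.0212). None of the 7 SR protein kinases, which phosphorylate SR proteins, was called by edgeR or DESeq2, and 0 of 7 had an unadjusted p under 0.05 without the block.

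Of 5 partners and paralogs of PTB and RBM4, 1 was called with the block. Raver2, which encodes a protein that binds PTB, measured 4.44, 6.31 and 5.43 CPM in siNC and 2.05, 2.68 and 2.92 CPM in siPkm2. Every siPkm2 library lay below every siNC library, and the log2 fold change was -1.08 (adjusted p = 0.151, edgeR; 0.0231 with the block). Raver1, its paralog, averaged 74.2 ± 3.25 and 71.3 ± 1.70 CPM (SD, n = 3) and was not called, nor were Matr3, Rbm14 and Rbm4b. Of 20 other tested splicing regulators, 3 were called as higher and 3 as lower with the block. Nova1, a splicing factor known from neurons, rose from 5.33 ± 2.11 to 22.9 ± 6.14 CPM (SD, n = 3, log2 fold change 2.13, edgeR adjusted p = 0.00942 with the block, 0.0942 without). Celf2 rose (0.51, adjusted p = 0.0338 with the block) and Qk, the quaking gene, fell (-0.71, adjusted p = 0.0122 with the block).

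Myc, whose product activates the PTB and hnRNP A genes in other cells, averaged 38.8 ± 6.59 CPM in siNC and 45.7 ± 8.14 CPM in siPkm2 (SD, n = 3, log2 fold change 0.24, edgeR adjusted p = 0.586, and 0.0977 with the block). Of the 6 tested members of the MYC network, its partner Max (0.43, adjusted p = 0.0198) and the antagonist Mnt (0.37, adjusted p = 0.0350) rose with the block, and the antagonist Mxd1 fell (-0.49, adjusted p = 0.0462).

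**Figure D5:**
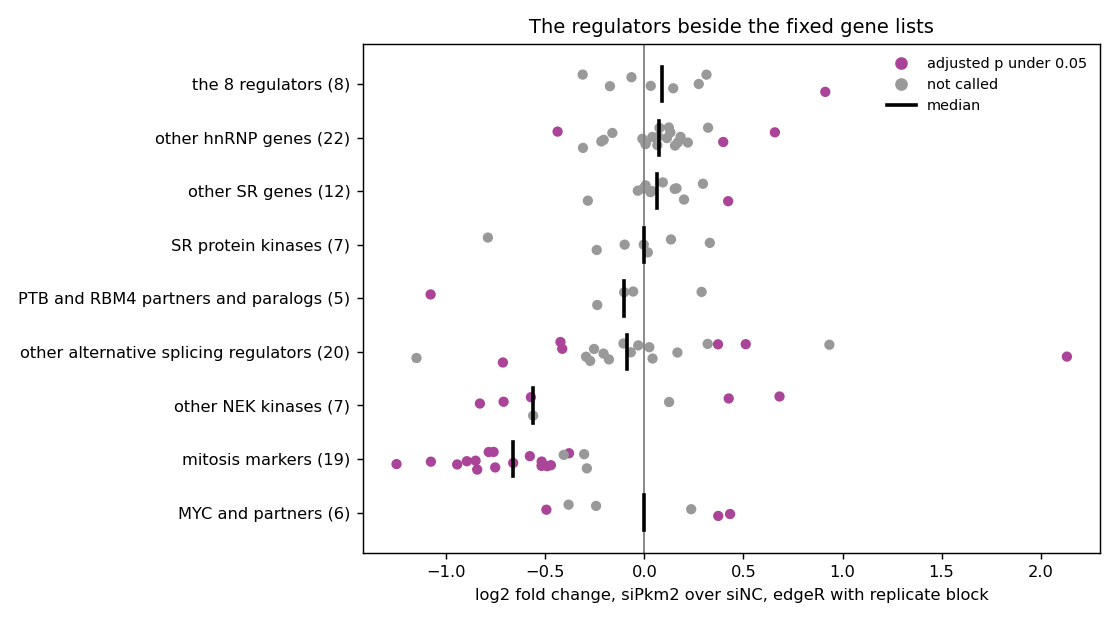
Log2 fold change of siPkm2 over siNC from edgeR with the replicate block (horizontal axis) for the 8 regulators and the tested genes of each list (number in brackets), with purple points for an adjusted p under 0.05 and black bars for medians. Ptbp3, at 0.91, is the single purple point among the regulators, and the mitosis markers all lie below 0.

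The genes whose profile over the 6 libraries was most like that of each regulator were found by the root-mean-square (RMS) difference of centred log2 CPM. Ptbp3 was closest to Atp6ap2 (0.06) and Actr2 (0.07), and 7 genes lay within 0.1 of it. Ptbp1 was closest to Pdcd4 and Sec22b, and Ptbp2 to 4933427D14Rik and Rrnad1, all at 0.06 to 0.07. Hnrnpa1 was closest to Faim (0.04) and Rpa3 (0.05). Hnrnpa2b1, which varied least, had 276 genes within 0.1, led by Rab33b (0.02) and Stx18 (0.03). Srsf3 was closest to Mmachc and Ndufs8 (0.07 each), Rbm4 to Camta2 (0.05) and Iqsec1 (0.06), and Nek2 to Klhdc8a (0.08) and D130062J10Rik (0.10).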

How the data were processed

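RNA-seq of 3 siNC and 3 siPkm2 cultures was read from the deposited gene table. The authors deposited estimated counts per gene and library, not normalized, and TPM, scaled by length and to a common total. Group mean TPM and the authors' own comparison were also deposited, as ratios, log2 ratios (fold changes), raw p-values and adjusted ones, and these were not used. The aligner and counter are not given in the sources used here. The submitters' processing notes name mm9 and edgeR, whereas 94.0% of the 55416 gene identifiers were found in GENCODE M21, from which positions, transcripts and UTRs on GRCm38 were taken.

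Counts were rounded to whole numbers. The groups were compared with edgeR 4.0.16 under R 4.3.3 (filterByExpr on the group, TMM factors, quasi-likelihood test without a block). Benjamini-Hochberg adjustment covered all 15269 genes tested, and a gene was called at an adjusted p under 0.05. Alternatives were the replicate number as a block, DESeq2 1.42.0, limma 3.58.1 on log2(TPM + 1) and log2(TPM + 0.1), other scaling factors and filters, a fold over 2, and each library left out. The block without each number in turn was added after seeing the data. The labels give both groups numbers 1 to 3. Deviations from the group means correlated at 0.66, 0.76 and 0.65 for equal numbers and at most 0.16 for different ones, so the numbers were taken to pair the libraries. No libraries of a group were duplicates, since 52.6% to 72.8% of genes differed beyond counting noise. Depth was 22317065 to 25691096 counts, and errors are the spread between 3 libraries.

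The 8 regulators and all gene lists were chosen with earlier results of these data known. Genes named are the 8, Pkm, Myc, up to 3 of each list by level and up to 3 others by change among those called with the block, and the 2 closest profiles to each regulator. The Ptbp3 to Ptbp2 ratio and library sums were described after their values were seen. So were the neuronal markers Tubb3, Rbfox3 and Nefl and the macrophage markers Ptprc, Adgre1, Fcgr1 and Csf1r. siRNA sequences came from the study's methods. The fits were tested on simulated data.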

Additional observations from a re-analysis of the deposited data

How the results depend on the processing

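Of 144 alternative values of the 8 regulators, 126 kept their direction and side of the threshold, 5 passed it (Ptbp3 under the replicate block, DESeq2, DESeq2 with the block, and the block without replicate 2, and Ptbp2 under the last) and 13 turned direction, all of Srsf3, Rbm4 or Nek2, which were called under no setting. Srsf3 went to -0.055 with upper-quartile factors and to -0.056 with limma on log2(TPM + 1) and on log2(TPM + 0.1), and ranged from -0.26 to 0.30 with single libraries left out. With the block and 1 number left out, its lowest values were -0.022 and -0.0014. Rbm4 went to 0.22 on both TPM scales and ranged from -0.20 to 0.10 with single libraries left out, and Nek2 from -0.48 to 0.080. The cause was not tested.

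The pairing of the libraries by replicate number moved the counts of calls. List genes are here those of the hnRNP, SR, SR kinase, PTB and RBM4 partner, other splicing, NEK, mitosis and MYC lists. The marker lists of cell types are left out. The block raised the regulators called from 0 to 1 and the genes called from 0 to 3524 (23.1%). It raised the list genes called from 0 to 35, of which 16 were mitosis markers. DESeq2 with the block gave 1 regulator, 3868 genes and 37 list genes. Without the block DESeq2 gave 1, 829 and 4. Genes called were 3 with upper-quartile factors, 9 with no filter, 3 with at least 10 counts in every library, and 1 on each TPM scale. With a fold over 2 and the block, 890 genes and 4 list genes were called, and 0 regulators. Leaving out 1 library gave 0 to 105 genes and 0 to 1 list genes, the most without siNC replicate 2. The block without replicate 2 gave 2 regulators, 5941 genes and 47 list genes, whereas without replicate 1 or 3 it gave 0 genes. Leaving out 1 library put the log2 fold change of Ptbp3 at 0.75 to 1.03 (edgeR adjusted p 0.0824 to 0.441). The same ranges were 0.01 to 0.39 for Ptbp1, -0.44 to -0.19 for Ptbp2, 0.12 to 0.55 for Hnrnpa1 and 0.0058 to 0.27 for Hnrnpa2b1. No alternative changed the depth, so its part was not tested.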
